A study of Mus musculus with 6 samples.

Results

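The fibroblast growth factor (FGF) family was followed in 33 genes: the 22 ligands Fgf1 to Fgf18 and Fgf20 to Fgf23, the receptors Fgfr1 to Fgfr4 and Fgfrl1 with the co-receptors Kl and Klb, and the feedback inhibitors Spry1 to Spry4. They were chosen by name, without use of measured values, from 20659 named genes. All 33 had a probe on the arrays, and 11 had several, which made 47 probes. RNA came from primary calvarial osteoblasts of newborn CD1 mice aged 2 to 5 days, and 2 arrays were made for each of 3 groups. Undifferentiated osteoblasts were grown to confluence in MEM with FBS. Differentiated osteoblasts were then kept in differentiation medium for 30 days, and these are the controls of the drug comparison. Cabozantinib-treated osteoblasts were kept for the same 30 days in the same medium with cabozantinib (XL184), an inhibitor of MET, VEGF receptors and other tyrosine kinases. The cells were calvarial isolates and not a clone, and the labels do not say whether the 2 arrays of a group came from separate cultures or pooled animals, so p values measure the spread between these arrays, which may be technical.

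FGF ligands bind receptor tyrosine kinases together with heparan sulfate, and the receptors signal through the adaptor FRS2 to the RAS and ERK kinases and through PLC gamma. Sprouty proteins are induced by this signaling and dampen it. In bone, FGFR1 to FGFR3 and ligands such as FGF2, FGF9 and FGF18 control the growth and differentiation of osteoblasts, and FGF23 is a hormone that osteoblasts and osteocytes secrete to lower phosphate in blood.

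Levels are given on the log2 scale relative to the 75th percentile of each array, so that a difference of 1 is a 2-fold change, and they can be compared between groups but not between probes. Between 58.8% and 72.9% of the spots of an array were well above background by the call of the scanner software, with the lowest shares on both cabozantinib arrays, and no spot was saturated. Between the arrays of a group the SD of the probe differences was 0.64 to 0.87 on the log2 scale. The cabozantinib arrays were scanned apart from the 4 others, so the scan and the drug cannot be told apart. The median gene was 0.11 higher in differentiated than in undifferentiated osteoblasts on the log2 scale and -0.29 with cabozantinib relative to control. The cabozantinib difference varied with brightness: with the probes tested cut into 4 bins of equal size by mean signal, its median was -1.19 in the dimmest bin and -0.56, -0.04 and -0.11 in the next 3, and the part of this in the results below was not tested. The osteoblast markers Alpl and Col1a1 were detected on every array, and Bglap2 (osteocalcin) was 5.06 higher after differentiation (limma adjusted p = 0.000534), whereas Runx2 was not well above background on either differentiated array. The summed linear signal of 5 adipocyte markers, relative to the 75th percentile, was 2.89 to 3.11 in undifferentiated, 28.1 to 56.8 in differentiated and 10.4 to 11.3 in cabozantinib-treated osteoblasts, and Adipoq and Cfd were not well above background before differentiation. That of 7 macrophage and osteoclast markers was 53.7 to 93.0, 308 to 465 and 279 to 349. That of 4 endothelial markers was 0.108 to 0.109, 0.240 to 0.252 and 0.179 to 0.195. Tek and Tie1 were not well above background on any array. Cdh5, detected on 5 arrays, rose with differentiation (2.18, adjusted p = 0.0130) and fell with cabozantinib (-2.40, adjusted p = 0.0231). The other endothelial marker tested, Pecam1, was called in neither comparison, and its cabozantinib difference was positive. The summed signal of 5 muscle markers was 4.31 to 4.53, 0.870 to 1.03 and 2.32 to 3.03. The actin gene Acta1 fell with differentiation (-2.58, adjusted p = 0.00387) and was higher with cabozantinib than in control (1.87, adjusted p = 0.0254). Of the 3 muscle markers tested, only Acta1 had a positive cabozantinib difference. Another was called lower, and the median of the 3 was -1.16. The summed signal of 4 chondrocyte markers was 82.9 to 183, 97.6 to 196 and 115 to 156. Of these, 1 was higher after differentiation, Col10a1 (2.68, adjusted p = 0.00390), and 0 were called with cabozantinib. The part of these markers in the results below was not tested. In such mixed cultures fewer cells of a type and less RNA per cell cannot be told apart.

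A probe is called detected on an array where the scanner software put it well above background, and it was tested if this was so on 2 or more arrays. This held for 31 of the 47 probes and 22 of the 33 genes, namely 13 ligands, 5 receptors and all 4 Sproutys, and 19 of the 22 were detected on all 6 arrays. A gene was called at its brightest probe, with an adjusted p under 0.05 in limma over all probes tested, and the other tested probes of a member are given beside it. Of the 22, 3 were higher in differentiated than in undifferentiated osteoblasts (Fgf1, Fgf12 and Fgfr4), against 7.17% of all genes tested, and 0 were lower, against 6.25%. At an unadjusted p under 0.05, 7 of the 22 differed. All 3 calls were lost after the normexp background correction, and Fgf12 passed the filter only through the groups where it was high. With cabozantinib 4 of the 22 were lower than in control (Fgf14, Fgf21, Spry2 and Spry4), against 12.0% of all genes, and 0 were higher, against 0.810%. At an unadjusted p under 0.05, 6 of the 22 differed. Differences are given as measured, and relative to the median gene those with cabozantinib were -1.32 for Fgf14, -1.36 for Spry2 and -1.54 for Spry4. Fgf21 had only a bound and passed the filter only through the groups where it was high. The cabozantinib calls depended on the processing: all 4 were lost after quantile normalization, with the authors' values, without the filter on dim probes, with only probes detected on all arrays, after normexp and without any 1 of the 4 arrays compared. After quantile normalization the split of the calls among all genes also moved, from 187 higher and 2761 lower to 44 higher and 69 lower. Relative to undifferentiated osteoblasts, Fgf1, Fgf12 and Fgfr4 were higher and Fgf13, Fgf14, Fgf21 and Spry2 were lower in cabozantinib-treated osteoblasts, against 6.77% and 17.4% of all genes. Like Fgf12 and Fgf21, Fgf13 passed the filter only through the groups where it was high. The second Fgfr4 probe was called in the other direction, lower than in undifferentiated osteoblasts. The comparisons share arrays, so their values are given side by side.

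**Figure D1:**
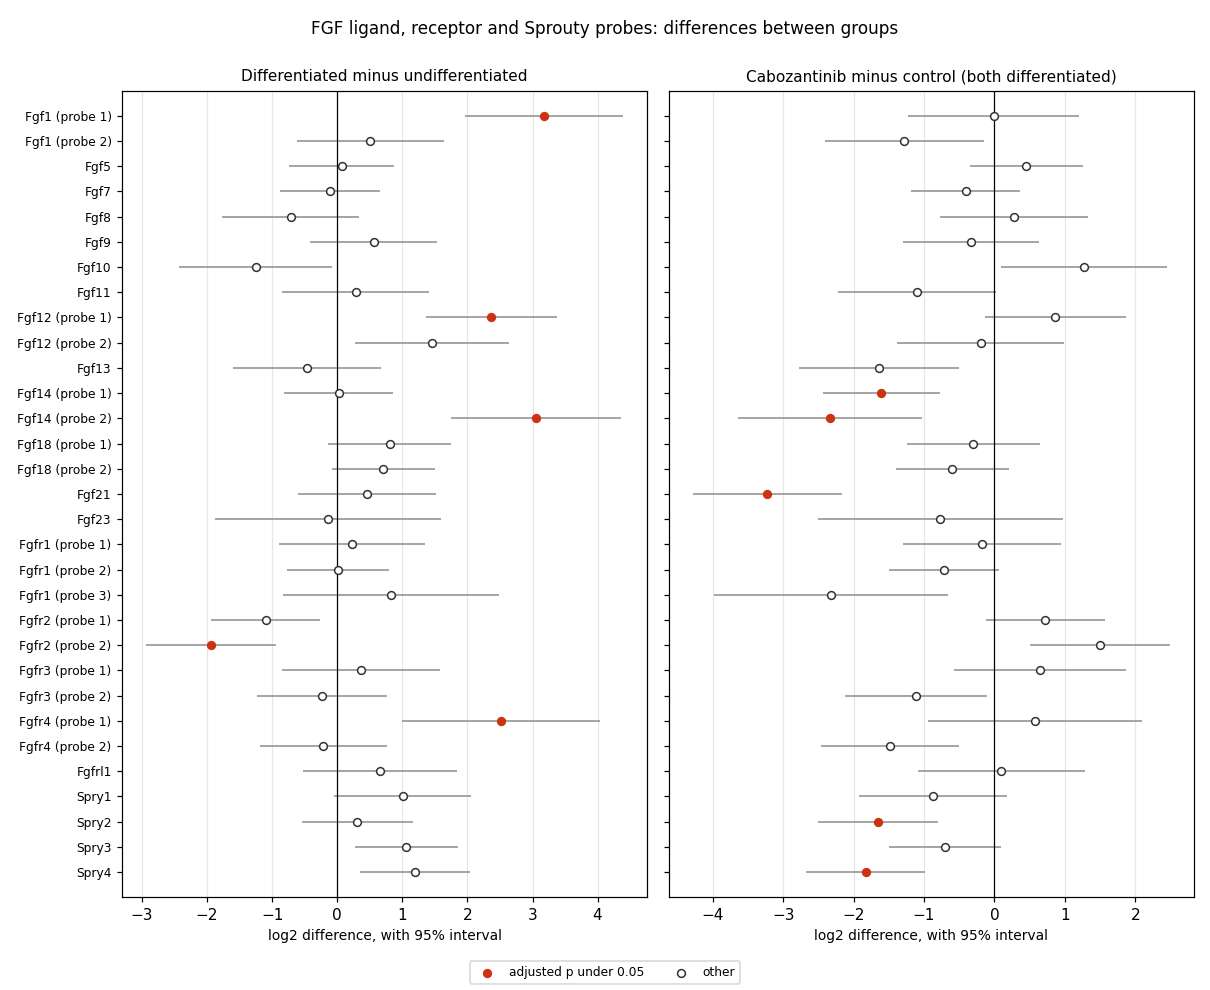
Log2 differences (x axis) of the 31 probes tested (rows, the brightest probe of a gene first) between differentiated and undifferentiated osteoblasts (left) and between cabozantinib-treated and control differentiated osteoblasts (right), with 95% confidence intervals from limma as lines. Filled red points have an adjusted p under 0.05, and the 2 panels have different x axes. The filled points on the left are Fgf1, Fgf12, the second probe of Fgf14, the second probe of Fgfr2 and Fgfr4, and on the right both probes of Fgf14, Fgf21, Spry2 and Spry4.

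Among the ligands, 2 of the 13 tested rose with differentiation (all genes: 7.17%) and 2 fell with cabozantinib (all genes: 12.0%), and the median log2 difference of the 13 was 0.07 and -0.33. The ligand with the greatest rise was Fgf1 (acidic FGF), a ligand that binds every FGF receptor. Its brighter probe measured -2.39 and -3.44 on the undifferentiated, -0.25 and 0.78 on the differentiated and 0.00 and 0.51 on the cabozantinib arrays. Both undifferentiated arrays lay below the 4 others, which overlapped with each other. The rise was 3.18 ± 0.52 (log2 difference ± SE, n = 2 arrays per group; limma adjusted p = 0.00792), or 9.05-fold. Cabozantinib minus control was -0.01, with a 95% interval from -1.23 to 1.20. The dimmer Fgf1 probe was well above background on only 1 undifferentiated and 1 differentiated array, and its difference after differentiation was 0.51 (adjusted p = 0.618).

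Fgf12, like Fgf11, Fgf13 and Fgf14, encodes an FGF homologous factor, a protein that stays inside the cell and regulates sodium channels. At its brighter probe Fgf12 was not well above background on the undifferentiated arrays, where it measured -5.98 and -6.58, and reached -4.36 and -3.47 on the differentiated and -3.16 and -2.93 on the cabozantinib arrays. The rise after differentiation was at least 3.83-fold (adjusted p = 0.0118). This bound was taken against the dimmest signal that was called well above background on each undifferentiated array. Such bounds compare means of 2 arrays and leave out the spread between arrays. As measured the rise was 2.37 on the log2 scale, with a 95% interval from 1.36 to 3.38. The probe passed the filter only through the groups where it was high, and after normexp the difference was 0.39 and not called. The call was lost without the second differentiated array (adjusted p = 0.0732). In cabozantinib-treated osteoblasts Fgf12 did not differ from control past the test, with a log2 difference of 0.87 and a 95% interval from -0.14 to 1.87. The second Fgf12 probe was well above background on 1 array of each group and differed by 1.46 after differentiation (adjusted p = 0.110).

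Fgf14 was read by 2 tested probes for different RefSeq transcripts, which disagreed after differentiation. A further probe, for the same transcript as the brighter one, was not detected on any array. The brighter probe measured -2.50 and -2.95 in undifferentiated, -2.89 and -2.53 in differentiated and -4.36 and -4.27 in cabozantinib-treated osteoblasts. Both cabozantinib arrays lay below the 4 others. Its fall with cabozantinib was -1.60 ± 0.35 (adjusted p = 0.0332), or 3.04-fold, and after quantile normalization the difference was -1.04 (adjusted p = 0.0802). This probe was in the second bin by brightness, in which 14.0% of all probes were called lower with cabozantinib. After differentiation this probe differed by 0.02, with an interval from -0.81 to 0.85. The probe for the other transcript was well above background only on the differentiated arrays, at -4.52 and -4.81, and therefore passed the filter only through the group where it was high. It was at least 2.66-fold higher than in undifferentiated osteoblasts (adjusted p = 0.0120) and at least 1.76-fold lower with cabozantinib (adjusted p = 0.0396). Without either differentiated array both calls were lost.

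Fgf13 measured -2.84 and -3.99 in undifferentiated and -4.27 and -3.49 in differentiated osteoblasts, and was not well above background on the cabozantinib arrays, at -5.55 and -5.48. The cabozantinib arrays did not overlap with control, at a bound of at least 3.02-fold, but the difference did not pass the test (adjusted p = 0.0670). Against undifferentiated osteoblasts it did, at least 4.18-fold lower (adjusted p = 0.0232). The Fgf13 probe passed the filter only through the groups where it was high. It was in the dimmest bin, in which 37.3% of all probes were called lower with cabozantinib than in undifferentiated osteoblasts. Fgf11 measured -1.84 and -2.90 in undifferentiated, -2.33 and -1.84 in differentiated and -3.54 and -2.83 in cabozantinib-treated cells. Its cabozantinib arrays were below both control arrays but one of them was within the range of the undifferentiated arrays, and the difference from control was -1.10 (adjusted p = 0.184).

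Fgf21 is an endocrine FGF that is best known from liver and fat and acts through FGFR1 with the co-receptor beta-Klotho, encoded by Klb. It was detected on both undifferentiated arrays, at -4.12 and -4.75, and on both differentiated arrays, at -4.24 and -3.73, and on neither cabozantinib array, at -6.75 and -7.67. Every cabozantinib value lay below all values without the drug. The fall was at least 2.82-fold (adjusted p = 0.0231), and the call was lost after quantile normalization (adjusted p = 0.0728). Its probe was in the dimmest bin, in which 29.4% of all probes were called lower with cabozantinib. Adipocyte markers moved in the same comparison, with 2 of 5 lower (Cfd and Fabp4) and Cfd (adipsin) at -0.42 and 0.45 on the control and -3.88 and -3.43 on the cabozantinib arrays, and their part in the Fgf21 result was not tested. After differentiation alone Fgf21 differed by 0.45 (interval from -0.60 to 1.51). In that comparison Fabp4, a fatty acid binding protein of adipocytes, rose by 4.38 (adjusted p = 0.00147), and a relation between these differences was not tested.

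The other secreted ligands that could be tested did not pass the test in either comparison. Fgf23, the phosphate hormone, measured 1.98 and -0.26 in undifferentiated, 0.22 and 1.20 in differentiated and -0.45 and 0.32 in cabozantinib-treated osteoblasts. The undifferentiated arrays were so far apart that they spanned the values of all other arrays but one, and the cabozantinib difference of -0.77 had an interval from -2.51 to 0.97. Fgf18, a ligand of skeletal growth, had tested probes with differences of the same sign, 0.80 and 0.71 after differentiation (adjusted p = 0.273 and 0.247) and -0.30 and -0.60 with cabozantinib. Its brighter probe measured -1.52 and -2.32 in undifferentiated, -1.37 and -0.87 in differentiated and -1.48 and -1.36 in cabozantinib-treated cells, and both differentiated arrays lay above the undifferentiated ones. Fgf9, which acts on the same mesenchymal receptor forms, measured -2.41 and -3.29 in undifferentiated, -2.44 and -2.15 in differentiated and -2.82 and -2.43 in cabozantinib-treated cells, with groups that overlapped.

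Fgf10 and Fgf7 are made by mesenchymal cells and act on the epithelial form of FGFR2. Fgf10 measured -1.56 and -0.71 in undifferentiated, -1.84 and -2.93 in differentiated and -0.87 and -1.37 in cabozantinib-treated osteoblasts. Both differentiated arrays were the lowest of the 6. The log2 differences were -1.26 after differentiation (adjusted p = 0.163) and 1.27 with cabozantinib (adjusted p = 0.144), and cabozantinib minus undifferentiated was 0.01. Fgf7 varied little, at 4.18 and 4.47 in undifferentiated, 4.26 and 4.18 in differentiated and 3.79 and 3.83 in cabozantinib-treated cells, and both cabozantinib arrays were the lowest. Its cabozantinib difference was -0.41, with an interval from -1.18 to 0.36. Fgf5 and Fgf8 were detected on all 6 arrays, with levels from -2.88 to -2.10 and from -4.82 to -3.43, and log2 differences of 0.07 and -0.72 after differentiation and 0.45 and 0.28 with cabozantinib.

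Of the other 9 ligands, Fgf6 was well above background on 1 undifferentiated array. Fgf2, Fgf3, Fgf4, Fgf15, Fgf16, Fgf17, Fgf20 and Fgf22 were on none. Fgf2 (basic FGF), a ligand often used to stimulate osteoblasts, was thus not detected by its single probe in any group. The further probes of Fgf8, Fgf14 and Fgf23 that were not tested were not detected on any array either.

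**Figure D2:**
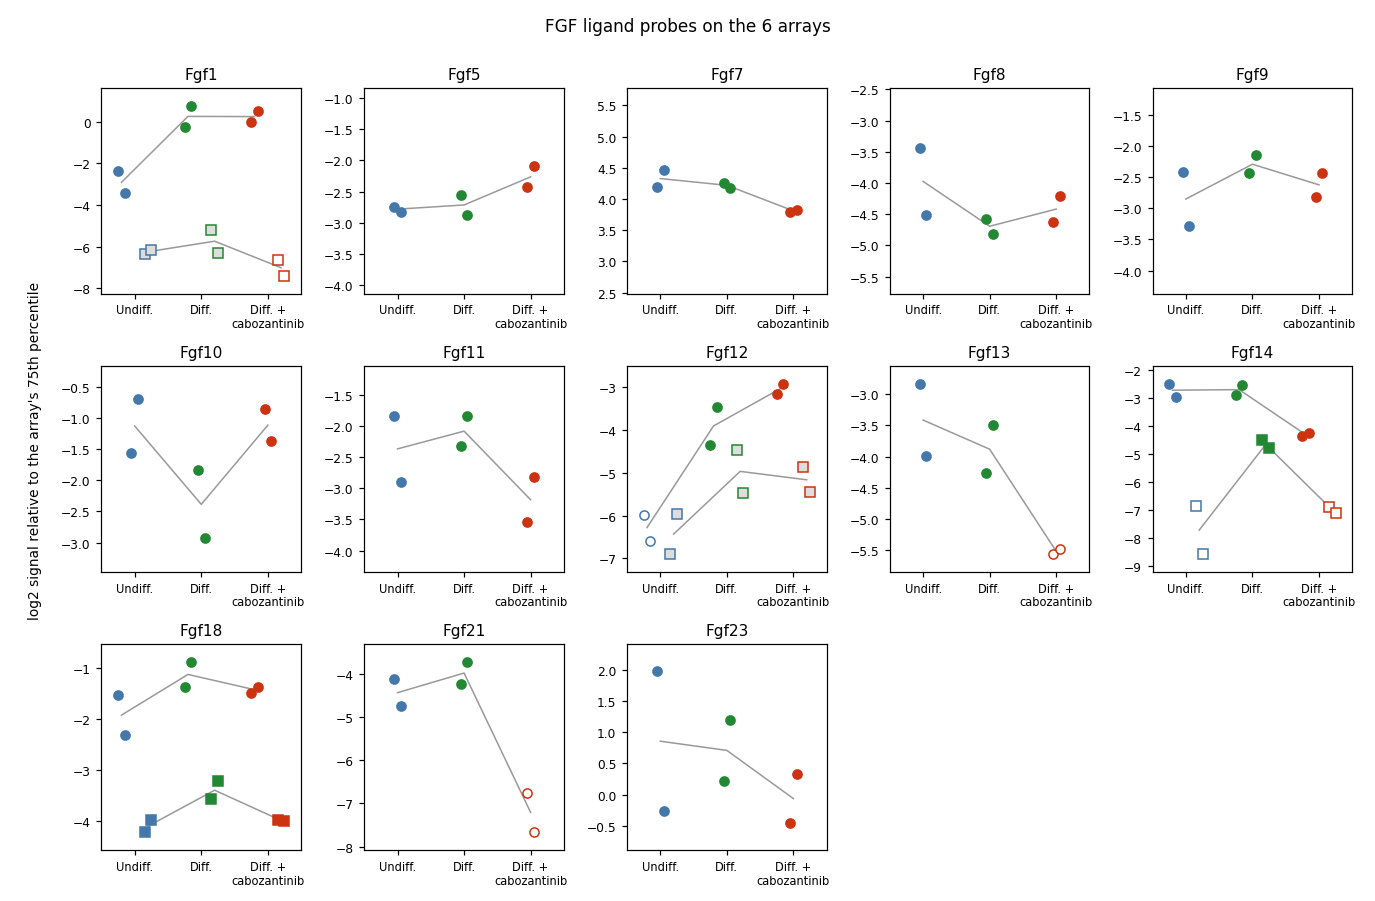
Level of each tested ligand probe on the 6 arrays (y axis, log2 signal relative to the 75th percentile of the array) in undifferentiated (blue), differentiated (green) and cabozantinib-treated differentiated (red) osteoblasts, with grey lines through the means of 2 arrays. Circles are the brightest probe of a gene and squares the next one. Filled symbols were well above background on both arrays of the group, light grey fills on 1 and white fills on neither. Fgf1 and Fgf12 rise from the blue to the green symbols, and the red symbols of Fgf21 and Fgf13 are white and below all others.

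The receptor differences depended on the probe that read them. At the brightest probe of each of the 5 receptors, 1 rose with differentiation (Fgfr4, against 7.17% of all genes) and 0 of 5 were called with cabozantinib (all genes: 12.8%), with a median difference of 0.58. Among the other tested receptor probes, the second Fgfr2 probe was called after differentiation, and the second Fgfr4 probe in cabozantinib-treated relative to undifferentiated osteoblasts. Over all families, 8 genes had more than 1 probe tested, with 9 probes besides the brightest, and the cabozantinib difference of 8 of these 9 was negative. At the brightest probe of the same 8 genes it was positive for 4 and negative for 4.

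Fgfr2, a receptor that drives proliferation and differentiation of calvarial osteoblasts, was read by 2 probes that agreed in direction. The brighter probe measured -0.72 and -0.38 in undifferentiated, -1.72 and -1.58 in differentiated and -0.68 and -1.19 in cabozantinib-treated osteoblasts. The dimmer one measured -2.14 and -1.30 in undifferentiated, -3.62 and -3.71 in differentiated and -1.85 and -2.49 in cabozantinib-treated cells. At both probes the differentiated arrays were the lowest and did not overlap with either other group. The dimmer probe fell by 3.84-fold with differentiation (-1.94 ± 0.42 log2; adjusted p = 0.0234), and the brighter one differed by -1.10 ± 0.36 (adjusted p = 0.0939). Without either differentiated array or the second undifferentiated array the call was lost (adjusted p up to 0.115). With cabozantinib the log2 differences from control were 1.49 (adjusted p = 0.0603) and 0.72 (adjusted p = 0.242), and neither passed. Relative to undifferentiated osteoblasts the cabozantinib arrays were at -0.45 and -0.38.

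Fgfr4 was read by 2 probes that disagreed. The brighter probe measured -3.43 and -4.95 in undifferentiated, -2.41 and -0.94 in differentiated and -1.31 and -0.88 in cabozantinib-treated osteoblasts, so that every value after differentiation lay above the undifferentiated ones. Its rise was 5.72-fold (2.52 ± 0.65 log2; adjusted p = 0.0432). This call was lost without the second differentiated or the second undifferentiated array (adjusted p up to 0.220) and with the mean of both probes. The dimmer probe measured -2.92 and -3.72 in undifferentiated, -3.77 and -3.30 in differentiated and -5.23 and -4.80 in cabozantinib-treated cells, with overlapping groups before and after differentiation (-0.21) and lower values on both cabozantinib arrays (-1.48; adjusted p = 0.0595). The brighter probe differed with cabozantinib by 0.58 in the opposite direction, so the array gives no single direction for Fgfr4 under the drug. Relative to undifferentiated osteoblasts both probes were called in cabozantinib-treated cells, in opposite directions: the brighter was higher (3.09, adjusted p = 0.0179) and the dimmer lower (-1.69, adjusted p = 0.0281).

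Fgfr1, a main FGF receptor of osteoblasts, was read by 3 probes. The brightest measured 5.46 and 4.69 in undifferentiated, 4.77 and 5.84 in differentiated and 4.96 and 5.29 in cabozantinib-treated cells, and its groups overlapped. The middle probe measured -1.43 and -1.11 in undifferentiated, -1.17 and -1.33 in differentiated and -1.96 and -1.96 in cabozantinib-treated cells, with both cabozantinib arrays lowest. The dimmest was well above background on 1 undifferentiated array, on both differentiated arrays at -5.14 and -3.32, and on neither cabozantinib array. Their cabozantinib differences on the log2 scale were -0.17, -0.71 (adjusted p = 0.214) and, as a bound, at least 2.37-fold lower (adjusted p = 0.0732), and none passed the test.

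Fgfr3, a receptor that restrains the growth of cartilage and is also present in osteoblasts, was read by probes whose cabozantinib differences had opposite signs. Its brighter probe measured 2.11 and 1.01 in undifferentiated, 1.44 and 2.41 in differentiated and 2.29 and 2.85 in cabozantinib-treated cells, a cabozantinib difference of 0.65 (interval from -0.57 to 1.87). The dimmer one measured -3.22 and -3.88 in undifferentiated, -4.21 and -3.36 in differentiated and -4.98 and -4.82 in cabozantinib-treated cells, a difference of -1.11 (interval from -2.12 to -0.11; adjusted p = 0.134). Only at the dimmer probe did the cabozantinib arrays lie apart from the others. Fgfrl1, a receptor that lacks the kinase domain, measured 1.99 and 1.35 in undifferentiated, 1.67 and 2.98 in differentiated and 2.26 and 2.58 in cabozantinib-treated cells, with overlapping groups, and differed by 0.65 after differentiation and 0.10 with cabozantinib. The co-receptors Kl, which FGF23 needs, and Klb, which FGF21 needs, were not well above background on any array.

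**Figure D3:**
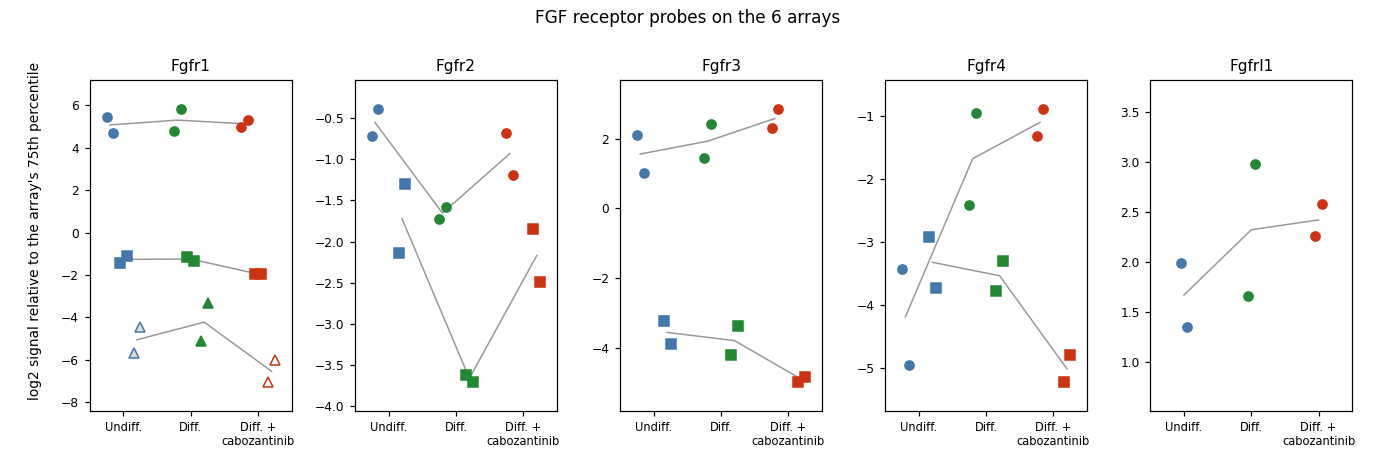
Level of each of the 10 tested receptor probes on the 6 arrays (y axis, log2 signal relative to the 75th percentile of the array), with the 3 groups on the x axis, grey lines through the means of 2 arrays, circles for the brightest probe, squares for the next and triangles for the dimmest. Filled symbols were well above background on both arrays of the group, light grey fills on 1 and white fills on neither. Both Fgfr2 probes are lowest in differentiated osteoblasts, while the circles and squares of Fgfr3 and Fgfr4 part in the cabozantinib group.

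All 4 Sprouty genes were detected on all 6 arrays, and for each the cabozantinib difference was negative, with a median of -1.26. Spry2 and Spry4 fell, 2 of 4 against 12.0% of all genes, and Spry1 and Spry3 did not pass the test. After differentiation all 4 differences were positive, with a median of 1.03, and 0 of 4 passed the test. Under each scaling tried (quantile, the 75th percentile of probes detected on all arrays, the authors' values and normexp) the sign of the cabozantinib difference was the same for all 4. The median gene was negative under each of these scalings too, at -0.08, -0.19, -0.07 and -0.27 in this order.

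Spry4 measured -2.25 and -1.61 in undifferentiated, -0.69 and -0.78 in differentiated and -2.55 and -2.58 in cabozantinib-treated osteoblasts. The groups did not overlap, with the differentiated arrays highest and the cabozantinib arrays lowest. The fall with cabozantinib was 3.55-fold (-1.83 ± 0.36 log2; adjusted p = 0.0279), and after quantile normalization the difference was -1.61 (adjusted p = 0.0743). Its probe was in the third bin by brightness, in which 2.72% of all probes were called lower with cabozantinib. After differentiation the difference was 1.19 ± 0.36 (adjusted p = 0.0752), and relative to undifferentiated osteoblasts the cabozantinib arrays were at -0.64 (adjusted p = 0.234).

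Spry2 measured -2.74 and -3.34 in undifferentiated, -2.68 and -2.78 in differentiated and -4.52 and -4.24 in cabozantinib-treated cells. The undifferentiated and differentiated arrays overlapped, and both cabozantinib arrays lay below the other 4. Its fall was 3.14-fold (-1.65 ± 0.36 log2; adjusted p = 0.0331). After quantile normalization the difference was -1.06 (adjusted p = 0.0881). Its probe was in the second bin by brightness, in which 14.0% of all probes were called lower. Unlike Spry4, it was also lower in cabozantinib-treated than in undifferentiated osteoblasts (-1.34; adjusted p = 0.0368), and the difference between the 2 genes was not tested.

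Spry1 measured 0.51 and 0.93 in undifferentiated, 2.29 and 1.17 in differentiated and 0.79 and 0.92 in cabozantinib-treated cells. Spry3 measured -3.66 and -3.87 in undifferentiated, -2.53 and -2.87 in differentiated and -3.44 and -3.38 in cabozantinib-treated cells. For both, the differentiated arrays were the highest of the 6. The cabozantinib difference was -0.87 for Spry1 (interval from -1.92 to 0.18; adjusted p = 0.260) and -0.71 for Spry3 (interval from -1.50 to 0.09; adjusted p = 0.224). After differentiation the differences were 1.01 and 1.06 (adjusted p = 0.211 and 0.0865). Without the first differentiated array, the higher of the pair, the cabozantinib difference of Spry1 was -0.31, and after quantile normalization that of Spry3 was -0.23. The Spry3 probe was in the second bin by brightness, with a median cabozantinib difference of -0.56, and the Spry1 probe in the third, with -0.04.

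**Figure D4:**
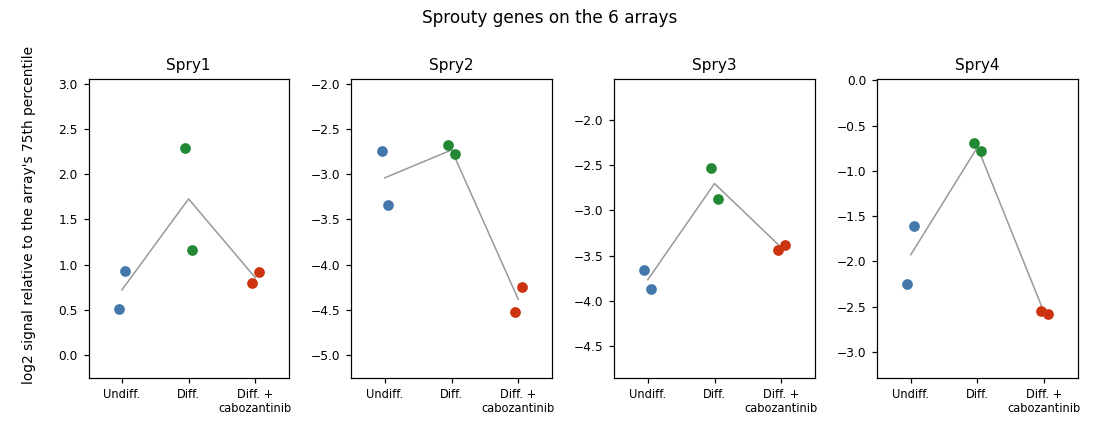
Level of the 4 Sprouty genes on each of the 6 arrays (y axis, log2 signal relative to the 75th percentile of the array) in the 3 groups on the x axis, with grey lines through the means of 2 arrays; all symbols are filled because every array was well above background. The red symbols (cabozantinib) of Spry2 and Spry4 lie below all others, and those of Spry1 and Spry3 lie below the green ones (control).

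Promoter sequences of RefSeq on GRCm38.p6, from 250 bases before to 50 bases after the start site, were on hand for 24 of the 33 genes. They are shown for Spry2 and Fgf21, called lower with cabozantinib, and for Fgfr2, called after differentiation only at its dimmer probe. That of Spry1 is shown as the promoter of a Sprouty that was not called. Capitals mark a match, on either strand, to CCGGAA, the core bound by ETS factors such as those that ERK activates (searched in the Sproutys), to CACGTG, the E-box palindrome (searched in Fgf21 and Fgfr2), or to TTGCATCA, a CEBP and ATF response element (searched in Fgf21). The motifs do not overlap. The Spry2 window (chr14:105896770-105897069, minus strand) held CCGGAA 33 bases after the start site and the Spry1 window (chr3:37639697-37639996, plus strand) held none. The Fgfr2 window (chr7:130266759-130267058, minus strand) held CACGTG 28 bases after the start. The Fgf21 window (chr7:45615441-45615740, minus strand) held TTGCATCA 139 bases and CACGTG 50 bases before the start. Of 32851 mouse promoters of the same length, 14.9% held CCGGAA, 7.15% CACGTG and 0.895% TTGCATCA. Of the 31 promoters of the 24 genes, 5 (16.1%), 4 (12.9%) and 1 (3.23%) did. Besides Spry2, the members with CCGGAA were Fgf5, Fgf12, Fgfr4 and Fgfrl1, none of them called with cabozantinib against control. A match is a stretch of letters and was not tested for binding.
Spry2: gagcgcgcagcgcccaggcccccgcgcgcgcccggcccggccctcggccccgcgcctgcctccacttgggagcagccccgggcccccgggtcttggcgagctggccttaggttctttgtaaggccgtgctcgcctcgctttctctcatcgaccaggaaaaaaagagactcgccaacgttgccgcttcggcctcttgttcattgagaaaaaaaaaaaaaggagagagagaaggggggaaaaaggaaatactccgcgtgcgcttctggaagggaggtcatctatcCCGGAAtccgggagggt
Spry1: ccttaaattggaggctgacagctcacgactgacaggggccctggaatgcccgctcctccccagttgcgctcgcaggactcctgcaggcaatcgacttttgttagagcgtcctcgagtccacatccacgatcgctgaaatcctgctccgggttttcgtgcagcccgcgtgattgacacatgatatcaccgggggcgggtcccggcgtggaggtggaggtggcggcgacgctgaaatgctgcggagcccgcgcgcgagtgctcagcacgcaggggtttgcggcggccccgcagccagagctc
Fgfr2: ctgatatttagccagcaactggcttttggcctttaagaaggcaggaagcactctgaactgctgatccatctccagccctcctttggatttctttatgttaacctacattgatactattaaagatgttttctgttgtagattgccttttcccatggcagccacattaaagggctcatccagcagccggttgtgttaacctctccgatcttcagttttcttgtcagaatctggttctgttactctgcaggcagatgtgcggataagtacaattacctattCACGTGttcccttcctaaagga
Fgf21: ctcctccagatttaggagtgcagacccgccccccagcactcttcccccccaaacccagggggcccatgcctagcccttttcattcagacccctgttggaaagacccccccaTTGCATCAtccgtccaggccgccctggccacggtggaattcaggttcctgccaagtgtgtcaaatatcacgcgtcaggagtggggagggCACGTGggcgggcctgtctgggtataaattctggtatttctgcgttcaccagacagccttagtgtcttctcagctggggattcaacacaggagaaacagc

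Of 70 other genes of the pathway, 62 were tested. With cabozantinib 3 were higher and 4 lower (all genes: 0.810% and 12.0%), with a median log2 difference of 0.01 (all genes: -0.29). After differentiation 7 were higher and 10 lower (all genes: 7.17% and 6.25%). The 7 cabozantinib calls were lost under the same scalings and filters as those of the Sproutys, the authors' values included. Among ERK feedback genes and targets, 1 of 15 was called with cabozantinib, and it was higher (all genes: 0.810%). This was Ccnd1 (cyclin D1), at -0.37 and -0.22 in control and 1.81 and 1.30 in cabozantinib-treated osteoblasts (1.85, adjusted p = 0.0268), after a fall from 2.78 and 3.08 with differentiation (-3.22, adjusted p = 0.00207).

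Other genes that, like the Sproutys, are commonly read as targets of FGF and ERK signaling did not pass the test under the drug. Dusp6, an ERK phosphatase, measured 4.11 and 4.35 in control and 3.76 and 4.28 in cabozantinib-treated osteoblasts, with overlapping arrays. The differences were -0.21 for Dusp6 (interval from -1.24 to 0.82), 0.15 for Etv4 (-0.94 to 1.24), -0.20 for Etv5 (-1.19 to 0.80) and -0.14 for Spred1 (-0.95 to 0.66). Etv4 and Etv5 are ETS transcription factors and Spred1 is a Sprouty-related inhibitor. Larger negative differences that did not pass the test were those of Etv1 (-1.13, adjusted p = 0.0743), Fosl1 (-0.93, adjusted p = 0.138) and Dusp4 (-0.81, adjusted p = 0.239). The median cabozantinib difference of the 15 was -0.19, against -0.29 for all genes, and 6 of the 15 were positive. After differentiation Dusp6 rose by 2.20 (adjusted p = 0.0170) and Dusp4 by 1.95 (adjusted p = 0.0187), and Myc and Fosl1 fell (-2.79 and -2.62; adjusted p = 0.0245 and 0.00430). In all 4 of the 15 were higher (Dusp4, Dusp6, Etv1 and Fos) and 3 lower, against 7.17% and 6.25% of all genes. The dimmer probe of Etv4 was called in neither comparison (adjusted p = 0.0903 after differentiation and 0.355 with cabozantinib).

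Of 18 adaptors and kinases, 2 fell with cabozantinib and 0 rose, against 12.0% and 0.810% of all genes. Frs3, a docking adaptor, measured -3.80 and -4.13 in control and was not well above background with cabozantinib, at least 2.85-fold lower (adjusted p = 0.0231). Its probe passed the filter only through arrays without the drug, where it was higher. By mean signal it was in the dimmest bin, in which 29.4% of all probes were called lower with cabozantinib. Plcg1, the FGF receptor substrate PLC gamma 1, fell by 3.01-fold at its brighter probe (adjusted p = 0.0410), and its dimmer probe did not pass the test (adjusted p = 0.239). Frs2, the main adaptor, differed by 0.21 (interval from -0.57 to 0.99). With differentiation Hras fell at its brighter probe (-4.72; adjusted p = 0.00154), whereas its dimmer tested probe, detected on 2 arrays, differed by 0.66 (interval from -0.74 to 2.07). Frs3 rose (1.67; adjusted p = 0.04998). This call was lost after quantile normalization (adjusted p = 0.104) and with the authors' values (adjusted p = 0.124), and after normexp the difference was 0.16.

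Of 20 heparan sulfate genes, 5 fell with differentiation (all genes: 6.25%) and 0 rose (all genes: 7.17%): Sdc1 (syndecan 1, -2.92), Ext1, a heparan sulfate polymerase (-2.54), the glypicans Gpc3 (-2.00) and Gpc4 (-1.57), and Hspg2 (perlecan, -1.72), with adjusted p from 0.00482 to 0.0389. The median of the 20 was -0.79, against 0.11 for all genes. With cabozantinib Sdc1 was higher (1.75; adjusted p = 0.0401) and Ext2 lower (-1.47; adjusted p = 0.0492).

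Of 9 genes that control FGF23 or answer to it, 2 rose with differentiation, Phex (6.38; adjusted p = 0.000391) and Dmp1 (3.99; adjusted p = 0.00308), the osteocyte proteins whose loss raises FGF23, and Vdr, the vitamin D receptor, fell (-2.99, adjusted p = 0.00207), against 7.17% of all genes higher and 6.25% lower. With cabozantinib Vdr was higher than in control (1.36, adjusted p = 0.0416) and Cyp27b1, which activates vitamin D, was lower (-1.69; adjusted p = 0.0275).

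**Figure D5:**
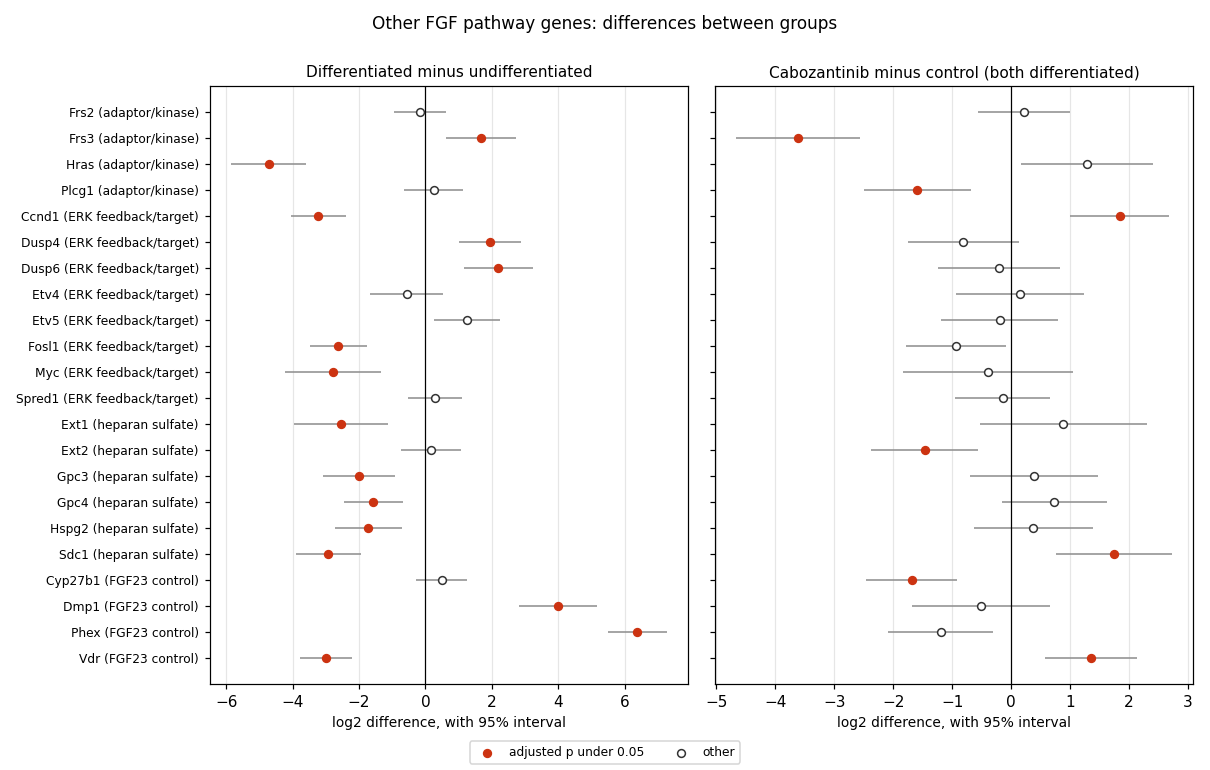
Log2 differences (x axis, with 95% confidence intervals) of other FGF pathway genes (rows, with their list in brackets) between differentiated and undifferentiated osteoblasts (left) and between cabozantinib-treated and control differentiated osteoblasts (right). Filled red points have an adjusted p under 0.05; most filled points are on the left, and on the right Dusp6, Etv4, Etv5 and Spred1 lie near 0.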

How the data were processed

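Total RNA of 6 osteoblast samples was labeled with Cy3 and hybridized to 1-color Agilent mouse arrays. Per the file headers, the deposited intensities were background-subtracted by Feature Extraction 11.0.1.1 and are in arbitrary units. The authors also deposited log2 values of 30439 probes, which correlated at 0.998 or more with the log2 scanner signals of the same array. Their normalization is not given in the sources used here. The flag for well above background is a yes or no score of the deposited scanner output.

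Probes were named through RefSeq accessions (69.1% of 39429). Control and outlier spots were removed, replicate spots averaged, and the log2 signals scaled to the 75th percentile of the array. Probes detected (flagged well above background) on 2 or more arrays were fitted with limma 3.58.1 (R 4.3.3) on all 6 arrays, with condition as the only term, 3 residual and 4.31 prior degrees of freedom, and Benjamini-Hochberg adjustment over all probes. Replicate numbers were not taken as pairs: same-numbered arrays deviated together with correlations of -0.51, -0.53 and 0.26. The functions were tested on simulated data. Every member with a tested probe was described, and of each pathway list up to 5 called genes by size per comparison. The members were chosen by name, without use of measured values. Earlier results of these data were nevertheless known when the members, lists and tests were fixed. Alternatives covered scaling, background correction, filters, probe summary, variance model, the replicate block, other tests and each array left out.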

Additional observations from a re-analysis of the deposited data

How the results depend on the processing

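Over 1978 alternatives for single probes, 1616 kept their side of the threshold without a large shift of the difference, and no called value changed sign. Values that kept their side but shifted further are not among the 1616. For the 5 member probes called after differentiation, 65 of 91 alternatives kept the call, and for the 5 called with cabozantinib 34 of 92 did. Member genes called with cabozantinib numbered 4. With the authors' values, without the filter, with probes detected on all 6 arrays, after normexp and after quantile normalization there were 0 in limma (8, 6, 5, 1 and 9 at an unadjusted p under 0.05). The replicate block left 1 (Fgf21), and with the numbers of the undifferentiated arrays crossed, which was chosen after seeing the data, 7. Leaving out 1 array gave 0 to 5. The methods' t-test, paired, gave 1 at an unadjusted p under 0.05 and 0 after Benjamini-Hochberg, and unpaired it gave 0 after Benjamini-Hochberg. After differentiation the 3 member genes became 0 with normexp, 5 with quantile normalization, 7 with the crossed block, 1 to 3 without 1 array, 1 in the paired t-test and 0 in both t-tests after Benjamini-Hochberg. Against undifferentiated osteoblasts the 7 became 3 with the authors' values or quantile normalization, 4 with probes detected on all arrays or the unpaired t-test, 0 with normexp, 1 in the paired t-test, 0 in both after Benjamini-Hochberg and 4 to 8 without 1 array. The 17 pathway genes called after differentiation became 10 without the filter, 8 with normexp, 31 with the crossed block and 7 to 17 without 1 array. The 7 called with cabozantinib became 0 without the filter, with probes detected on all arrays, after normexp and after quantile normalization, 1 with the replicate block, 17 with the crossed block and 0 to 10 without 1 array. The replicate block changed no call of a member gene after differentiation. Of all genes, 2948 were called with cabozantinib, against 616 with the replicate block, 7064 with it crossed, 4804 with only the arrays compared, 113 with quantile normalization, 1 with probes detected on all arrays and 0 with the authors' values, without the filter, with normexp and without any 1 of the 4 arrays compared. After differentiation 3097 were called, against 6029 with the crossed block, 2036 without the filter, 1170 with normexp and 1577 to 3522 without 1 array. Against undifferentiated osteoblasts 5572 were called, against 3061 with the authors' values, 3128 without the filter, 2971 with probes detected on all arrays, 692 with normexp, 3420 with quantile normalization, 3091 with the replicate block, 10304 with it crossed and 1852 to 6738 without 1 array. A block for the scan could not be fitted for the cabozantinib comparison. The causes were not tested. Of the 47 member probes, 16 were too dim to be tested, all of them of ligands or of Kl and Klb.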
